A study of Homo sapiens with 20 samples.

Results

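This account follows 4 genes through 20 RNA sequencing libraries of Jurkat T cells: RAG1 and RAG2, which encode the recombinase of antigen receptor genes, DNTT, which encodes terminal deoxynucleotidyl transferase (TdT), and IFTAP, the gene next to RAG2. They were picked by name, as the rows of the deposited gene and isoform tables that carry these symbols, with the difference between the 2 cell lines already known. All 4 passed the filter on low counts, among 16327 genes tested of 60719 in the table, and 41 of the 232184 isoforms belong to them.

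V(D)J recombination assembles the variable part of T cell and B cell receptors from gene segments. RAG1 and RAG2 act as a complex that cuts at recombination signals, TdT adds bases without a template to the opened ends, and the general end joining factors seal them. In the thymus these genes are used by immature T cells, and signalling through a finished T cell receptor is known to end RAG expression. TdT is also a marker of lymphoblastic leukemia. IFTAP encodes a protein that binds the intraflagellar transport machinery of cilia and has no known part in recombination.

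WT Jurkat is a human T cell leukemia line, and CD47- Jurkat is JinB8, a somatic mutant of it that was isolated for lack of CD47, the cell surface receptor of thrombospondin-1 (TSP1). Both are established lines, so every difference between them compares 1 mutant line with 1 parent. For each line, 1 untreated library was made at 1 h, and 1 library was made at each of 1, 3 and 6 h for plates coated with antibodies to CD3 and CD28 (CD3+CD28), for the same plates with added TSP1 (CD3+CD28+TSP1), and for TSP1 alone. All cells, untreated ones included, were kept in serum-free medium with hydrocortisone. Each condition was sequenced once and the labels do not say how the cultures were kept apart, so the p-values below measure the spread between libraries around a fitted model, which may be technical. Untreated cells at 3 or 6 h were not analysed here, and a change with time cannot be told apart from time in the medium after plating.

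Library totals were 20483642 to 31737616 expected counts in WT and 16107921 to 28525524 in CD47- cells. CD47 mRNA itself was 253 to 372 CPM (counts scaled to a common library total) in the WT libraries and 124 to 165 CPM in the CD47- libraries, so the mutant keeps CD47 transcripts. All 11 T cell markers on the list, among them CD3D, CD3E and LCK, passed the filter in these cells. Of 9 B lineage markers 5 passed it, CD79A, CD79B, EBF1, IGLL1 and BLNK, while MS4A1, PAX5 and VPREB1 were among those that did not, and of 7 myeloid markers CD14 alone did. In bulk RNA, fewer expressing cells and less RNA per cell cannot be told apart.

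RAG1 lies on chromosome 11 (GRCh38), plus strand, at chr11:36510372-36593156, RAG2 on the minus strand at chr11:36575574-36598279, and IFTAP on the plus strand at chr11:36594369-36675695. The annotated spans of neighbours among these 3 genes overlap, but the exons of their MANE Select transcripts, the agreed reference transcript of each gene, overlap by 0 bp. The strand setting of the read counting was not given in the sources used here. DNTT is on chromosome 10, plus strand, at chr10:96304409-96338564. The whole coding sequence of RAG1, 3129 bp, is in exon 2 of 2, as is that of RAG2, 1581 bp, while DNTT is read from 11 exons and IFTAP from 6.

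The 250 bases before the start of RAG2, IFTAP and DNTT are shown because RAG2 and IFTAP were both far lower in CD47- cells while DNTT was not. The windows are from RefSeq (GRCh38.p14), at chr11:36598237-36598486 for RAG2 (minus strand), chr11:36594252-36594501 for IFTAP and chr10:96304184-96304433 for DNTT. All are written 5′ to 3′ on the strand of the gene. Capitals mark matches on either strand to 6 patterns. These are the E-box CANNTG, the promoter element CCAAT, the GC box GGGCGG, the start element TATAAA, the RUNX core TGTGGT and the GATA pattern AGATAA.
RAG2: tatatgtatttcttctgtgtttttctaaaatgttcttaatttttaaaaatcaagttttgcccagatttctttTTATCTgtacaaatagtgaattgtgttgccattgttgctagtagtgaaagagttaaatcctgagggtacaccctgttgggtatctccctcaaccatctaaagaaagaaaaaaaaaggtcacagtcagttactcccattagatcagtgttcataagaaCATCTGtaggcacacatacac
IFTAP: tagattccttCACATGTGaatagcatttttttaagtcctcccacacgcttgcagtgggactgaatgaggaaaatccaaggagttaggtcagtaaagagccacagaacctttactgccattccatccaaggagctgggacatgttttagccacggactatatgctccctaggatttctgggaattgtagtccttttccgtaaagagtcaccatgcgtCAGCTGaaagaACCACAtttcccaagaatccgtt
DNTT: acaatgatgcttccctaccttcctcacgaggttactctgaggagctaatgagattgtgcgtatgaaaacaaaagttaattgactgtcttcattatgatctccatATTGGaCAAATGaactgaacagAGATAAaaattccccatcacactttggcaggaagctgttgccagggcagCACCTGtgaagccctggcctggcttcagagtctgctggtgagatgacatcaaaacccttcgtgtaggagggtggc

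The RAG2 window held 1 E-box and 1 GATA match, the IFTAP window 3 E-boxes, of which a pair overlap, and 1 RUNX core, and the DNTT window 2 E-boxes, 1 CCAAT and 1 GATA match before the start and another E-box after it. Of 35116 RefSeq windows of 300 bases, 68.7% held an E-box, 34.6% CCAAT, 45.0% a GC box, 11.5% TATAAA, 13.1% a RUNX core and 10.3% a GATA match. No window of these 3 held TATAAA or a GC box. A further RefSeq window of IFTAP, at chr11:36594566-36594865, held 2 E-boxes and no match to the other patterns. These are letter matches only.

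The first comparison sets CD47- cells against WT cells. The genes were chosen with it known, so it is given as a description and no test is reported. Over all genes, 6596 of 16327 (40.4%) differed between the lines (edgeR quasi-likelihood test with line as the only term, adjusted p under 0.05). RAG1, the subunit that carries the cutting site, was 187 to 565 CPM in the 10 WT libraries (median 350 CPM) and 5.73 to 10.9 CPM in the 10 CD47- libraries (median 7.67 CPM). The lowest WT library stood far above the highest CD47- library. The fitted difference was -5.43 (SE 0.24) on the log2 scale, 43.1-fold lower in CD47- cells, and in the 10 pairs of equal treatment and time WT exceeded CD47- by 24.1-fold to 55.9-fold.

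RAG2, the partner subunit, was 39.8 to 99.7 CPM in WT cells (median 52.5 CPM) and 2.02 to 4.79 CPM in CD47- cells (median 3.42 CPM). Again no library of one line reached the range of the other. The fitted difference was -4.20 (SE 0.21), 18.3-fold lower in CD47- cells, with 11.3-fold to 25.5-fold in the matched pairs. In counts, CD47- libraries held 138 to 255 for RAG1 and 39 to 109 for RAG2, so both transcripts were still detected in all 10.

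IFTAP was 8.70 to 12.6 CPM in WT cells (median 11.3 CPM) and 0.085 to 0.404 CPM in CD47- cells (median 0.257 CPM). That is 193 to 367 counts per WT library against 2 to 12 counts per CD47- library. The fitted difference was -5.37 (SE 0.17), 41.4-fold lower in CD47- cells. IFTAP was thus lowered by about as much as RAG1 in the fit, from a much lower level. Counted from the lowest fitted difference among the 16327 genes tested, RAG1 was gene 35, IFTAP gene 36 and RAG2 gene 47.

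DNTT did not follow the other 3 genes. It was 32.6 to 144 CPM in WT cells and 59.6 to 195 CPM in CD47- cells, and these ranges overlap. Within each time point the lines did not overlap, and CD47- exceeded WT in 10 of 10 matched pairs. The fitted difference was 0.52 (SE 0.31), 1.43-fold higher in CD47- cells. It was 0.90 at 6 h alone.

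**Figure D1:**
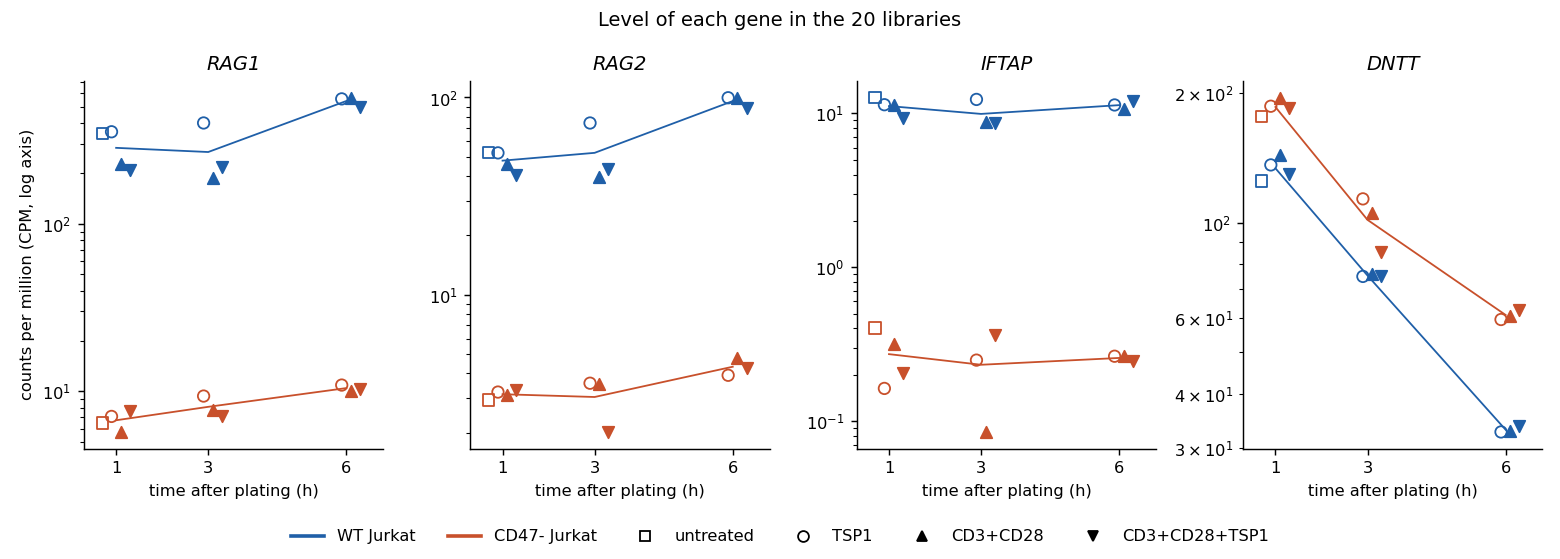
Level of RAG1, RAG2, IFTAP and DNTT in each of the 20 libraries, in CPM on a log axis, against time after plating. Points are single libraries with the treatment given by the symbol, and lines join the means of the WT (blue) and CD47- (orange) libraries at each time. RAG1, RAG2 and IFTAP are far lower in every CD47- library, while DNTT is higher there at each time and falls with time in both lines.

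Levels of different genes can be compared only per length of transcript. In CPM per kb, weighted by the isoforms, RAG1 was 54.2 ± 22.2 (SD, n = 10) in WT cells, DNTT 44.5 ± 23.2, RAG2 28.1 ± 11.2 and IFTAP 11.1 ± 1.53. The RAG2 isoform ENST00000618712 has no length in the reference used and was left out. It held 5.33% of RAG2 counts in WT and 0% in CD47- cells, so RAG2 is understated in WT cells alone. The spreads of RAG1 and DNTT overlap over the time course. In CD47- cells DNTT was 63.6 ± 29.5, RAG2 1.56 ± 0.398, RAG1 1.296 ± 0.270 and IFTAP 0.149 ± 0.092 CPM per kb. At 1 h RAG1 was 0.986 to 1.16 and RAG2 1.3045 to 1.51 CPM per kb there, with no overlap, while at 3 h they overlapped. The ratio of RAG1 to RAG2 per kb was 1.65 to 2.35 in WT libraries and 0.722 to 1.28 in CD47- libraries, with no overlap. The isoform left out makes this ratio too high in WT libraries alone. The ratio of RAG1 to DNTT moved most with time, from 0.631 ± 0.185 (n = 4) at 1 h to 4.82 ± 0.394 (n = 3) at 6 h in WT cells, and from 0.011 ± 0.00086 (n = 4) to 0.052 ± 0.0015 (n = 3) in CD47- cells.

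The isoform table shows which transcripts these counts belong to, as estimates made by the authors' counting program. RAG1 counts were assigned to ENST00000299440 for 99.96% in WT and 99.5% in CD47- cells. The primer pair that the study listed for RAG1 sits on this transcript, with one primer in exon 1 and the other in exon 2. Spliced RNA gives 110 bp between the outer ends of the primers and genomic DNA 5278 bp.
RAG1-L, chr11:36568087-36568106, plus strand: atctcaacactttggccagg
RAG1-R, chr11:36573345-36573364, minus strand: gtgctgaatttcatctgggg

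RAG2 counts were assigned to ENST00000311485 for 90.9% in WT cells and 96.1% in CD47- cells. A further RAG2 isoform, ENST00000618712, had 21.5 to 195 counts in each WT library and 0 in every CD47- library. It held 5.33% of RAG2 counts in WT cells and has no match in the reference annotation used here. CD47- libraries held 39 to 109 RAG2 counts in all, so at that share only a few counts would be expected in each. The MANE Select transcript of IFTAP, ENST00000334307, had 96.2 to 218 counts in each WT library, 59.4% of all IFTAP counts there, and 0 counts in each of the 10 CD47- libraries. With 3 counts over the group taken as the floor, it was at least 518-fold lower in CD47- cells. Of the 62 IFTAP counts left in CD47- cells, 32 were assigned to ENST00000679127, a transcript annotated as a retained intron, against 9.81% of IFTAP counts in WT cells.

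DNTT was read as 2 isoforms of 11 exons that differ in exon 10 and at their ends. The exon begins at 96335891 in ENST00000371174 and at 96335894 in ENST00000630152, so that 3 bases are kept in one and left out in the other. The splice site at chr10:96335871-96335910, plus strand, is shown with those 3 bases in capitals, because the last intron bases before them spell the same letters.
DNTT exon 10 splice site: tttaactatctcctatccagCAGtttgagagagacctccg

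The isoform with the 3 bases took 86.8 to 93.8% of the DNTT counts in WT libraries and 88.0 to 96.9% in CD47- libraries. These ranges overlap, and both isoforms fell from 1 h to 6 h in both lines. The isoform with the bases changed by -2.02 (SE 0.09, adjusted p = 2.94e-06) in WT and -1.53 (SE 0.09, adjusted p = 8.06e-06) in CD47- cells, and the one without them by -1.74 (SE 0.28, adjusted p = 0.00243) and -1.99 (SE 0.29, adjusted p = 0.0011), by edgeR adjusted over 55450 isoforms. Of all isoforms, 14.9% were called in WT and 17.3% in CD47- cells for 6 h against 1 h.

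The genes around these loci were read in the same way. COMMD9, a trafficking adaptor, and TRAF6, a signalling ubiquitin ligase, are the other genes tested within 500 kb of RAG1, RAG2 and IFTAP, both on the side away from IFTAP. COMMD9 differed between the lines by -0.029 (SE 0.17, adjusted p = 0.908) and TRAF6 by -0.019 (SE 0.092, adjusted p = 0.893) on the log2 scale by edgeR. The pseudogene AC104042.1, beyond IFTAP, had 65 counts over the WT libraries and 11 over the CD47- libraries and was not tested. PRR5L, on the other side and also not tested, went the other way, with 16 counts over the WT and 61 over the CD47- libraries. Around DNTT, the adaptor genes BLNK and PIK3AP1 were higher in CD47- cells, by 1.55 (SE 0.41, adjusted p = 0.00409) and 1.88 (SE 0.28, adjusted p = 1.13e-05) by edgeR. BLNK was at a low level, with 56.6 counts over the WT and 178 over the CD47- libraries. A further 5 neighbours of DNTT were lower in CD47- cells by less than 1 on the log2 scale, AC021037.1 (-0.73, adjusted p = 0.000436), ENTPD1-AS1 (-0.51, adjusted p = 0.00011), CCNJ (-0.34, adjusted p = 0.000661), LCOR (-0.32, adjusted p = 0.00736) and ZNF518A (-0.25, adjusted p = 0.025). RPL13AP5 was at -0.22 (adjusted p = 0.252). The antisense RNA AL136181.1 overlaps the start of DNTT, and without a known strand setting reads there cannot be told apart. It had 176 counts over the WT and 242 over the CD47- libraries, against 19434 and 30404 for DNTT, and rose from 1 h to 6 h by 0.87 (adjusted p = 0.0337) and 1.15 (adjusted p = 0.00448) while DNTT fell. TM9SF3, downstream of DNTT, differed between the lines by -0.15 (SE 0.069, adjusted p = 0.0887).

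**Figure D2:**
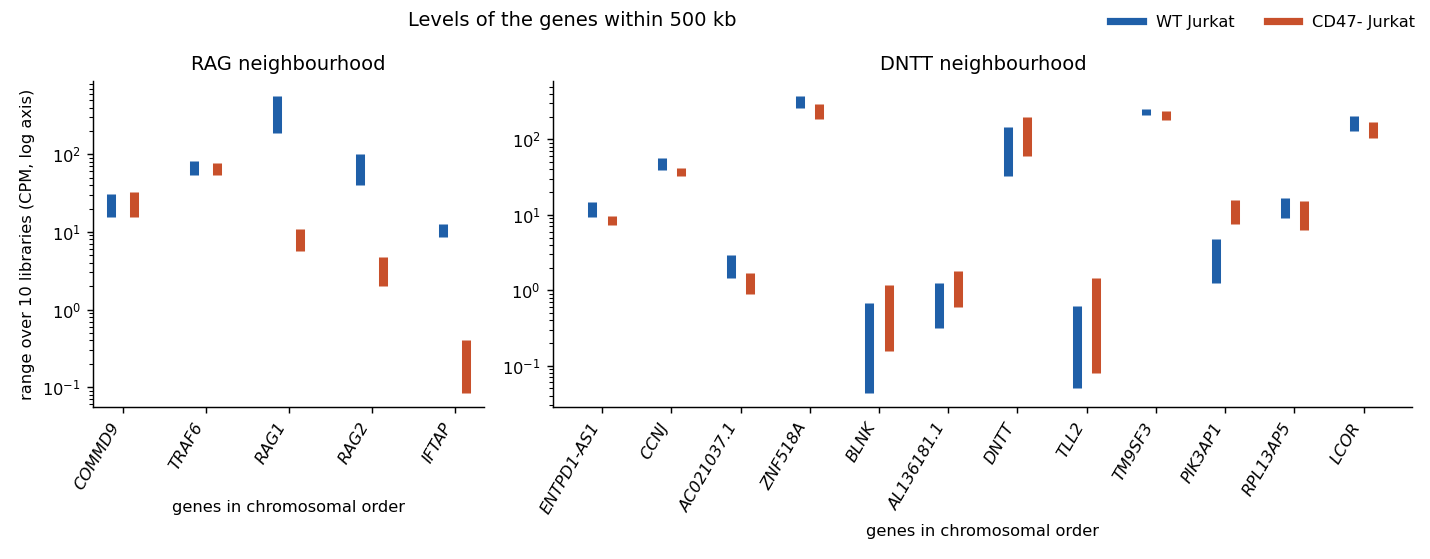
Range of each gene within 500 kb of the 4 genes that reached 1 CPM in any library, over the 10 WT (blue) and 10 CD47- (orange) libraries, in CPM on a log axis, with genes in chromosomal order. The bars of RAG1, RAG2 and IFTAP separate fully, those of COMMD9 and TRAF6 lie side by side, and those of DNTT overlap.

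The second question is how the 4 genes changed with time in each line. The change with time was not used to choose the genes. Each contrast was adjusted for treatment. The model holds 1 set of time terms per line, so each value averages over treatments whose changes may differ. DNTT fell the most. In WT cells it was 125 CPM untreated, 136.3 with TSP1, 144 with CD3+CD28 and 130 with CD3+CD28+TSP1 at 1 h. At 3 h it was 75.0, 75.8 and 75.3 CPM with TSP1, CD3+CD28 and CD3+CD28+TSP1, and at 6 h 32.6, 32.8 and 33.6 CPM. The 3 time points did not overlap, and treatments at one time lay close together. DNTT changed by -0.86 at 3 h against 1 h (SE 0.079, adjusted p = 3.32e-06) and by -2.05 at 6 h against 1 h (SE 0.082, adjusted p = 1.16e-09) by edgeR. Counted from the lowest change to 6 h among the 16327 genes tested, DNTT was gene 144.

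In CD47- cells DNTT was 177 CPM untreated, 187 with TSP1, 195 with CD3+CD28 and 185 with CD3+CD28+TSP1 at 1 h. It was 114, 105 and 85.7 CPM at 3 h and 59.6, 60.9 and 62.7 CPM at 6 h, in the order TSP1, CD3+CD28 and CD3+CD28+TSP1. Here too the time points did not overlap. The change was -0.90 at 3 h (adjusted p = 3.51e-06) and -1.63 at 6 h against 1 h (SE 0.080, adjusted p = 4.27e-09) by edgeR. From 3 h to 6 h DNTT fell by 1.19 in WT (adjusted p = 3.1e-07) and by 0.73 in CD47- cells (adjusted p = 1.34e-05).

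The fall of DNTT to 6 h was smaller in CD47- cells, by 0.42 (SE 0.11, adjusted p = 0.0211) in the edgeR test of the difference. This call was lost (adjusted p 0.0514 to 0.0712) when any of 4 single libraries was left out, WT TSP1 at 6 h, CD47- CD3+CD28 or TSP1 at 1 h, or CD47- CD3+CD28+TSP1 at 6 h. At 3 h the difference was -0.041 (SE 0.11, adjusted p = 0.866).

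RAG1 moved the other way. In WT cells it was 346 CPM untreated, 354 with TSP1, 227 with CD3+CD28 and 208 with CD3+CD28+TSP1 at 1 h. It was 400 CPM with TSP1, 187 with CD3+CD28 and 218 with CD3+CD28+TSP1 at 3 h, and 557, 565 and 499.96 CPM in the same order at 6 h. The 6 h libraries all lay above the rest, while 1 h and 3 h overlapped. RAG1 rose by 1.10 from 1 h to 6 h (SE 0.15, adjusted p = 3.36e-05) and by 1.10 from 3 h to 6 h (adjusted p = 7.5e-05) by edgeR.

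RAG2 in WT cells was 52.7, 52.4, 45.8 and 40.6 CPM at 1 h (untreated, TSP1, CD3+CD28 and CD3+CD28+TSP1). It was 74.3, 39.8 and 43.3 CPM at 3 h and 99.7, 99.2 and 88.8 CPM at 6 h (TSP1, CD3+CD28 and CD3+CD28+TSP1). The pattern matched that of RAG1, with all 6 h libraries above the rest. RAG2 rose by 1.06 from 1 h to 6 h (SE 0.15, adjusted p = 3.91e-05) and by 0.91 from 3 h to 6 h (adjusted p = 0.000271) by edgeR.

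In CD47- cells, from a level of a few CPM, RAG1 was 6.50 CPM untreated, 7.09 with TSP1, 5.73 with CD3+CD28 and 7.60 with CD3+CD28+TSP1 at 1 h. It was 9.38, 7.74 and 7.16 CPM at 3 h and 10.9, 10.1 and 10.4 CPM at 6 h (TSP1, CD3+CD28 and CD3+CD28+TSP1). The 6 h libraries were again above all others. RAG1 rose by 0.62 (SE 0.19, adjusted p = 0.012) from 1 h to 6 h by edgeR. The call was lost with limma voom (0.54, adjusted p = 0.181), and without the CD47- CD3+CD28 (adjusted p = 0.0663) or TSP1 library (adjusted p = 0.0508) at 1 h.

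RAG2 in CD47- cells was 2.93 to 3.31 CPM at 1 h, 2.02 to 3.57 CPM at 3 h and 3.92 to 4.79 CPM at 6 h. Its 6 h libraries also lay above the others, but its rise of 0.43 (SE 0.21) did not pass the edgeR test (adjusted p = 0.097). The rise to 6 h differed between the lines by -0.47 for RAG1 (interval of 2 SE, -0.95 to 0.0058, adjusted p = 0.201) and by -0.63 for RAG2 (-1.14 to -0.12, adjusted p = 0.108), neither called. With no filter on low counts both were called (adjusted p = 0.0202 for RAG1 and 0.0119 for RAG2), and RAG1 was called without the WT TSP1 library at 6 h (-0.71, adjusted p = 0.0164). Without the WT CD3+CD28 library at 6 h the RAG1 value was -0.24 (adjusted p = 0.538). Matched for treatment, the ratio of WT to CD47- CPM of RAG1 was 49.9 at 1 h and 51 at 6 h with TSP1 alone. It was 39.7 and 55.9 with CD3+CD28, and 27.4 and 48.2 with CD3+CD28+TSP1. For RAG2 the ratios were 16.3 and 25.5, 14.7 and 20.7, and 12.3 and 20.8 in the same order. The RAG1 ratio thus rose mainly in activated libraries. Each ratio sets 1 library against 1, and the dependence on treatment was not tested.

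IFTAP, which shares the RAG locus, did not share this time course. In WT cells it was 9.33 to 12.6 CPM at 1 h, 8.70 to 12.3 CPM at 3 h and 10.6 to 11.98 CPM at 6 h, ranges that overlap. Its change to 6 h was 0.094 in WT (interval -0.25 to 0.44, adjusted p = 0.681 by edgeR) and 0.16 in CD47- cells (adjusted p = 0.801). At 2 to 12 counts a library, the interval in CD47- cells ran from -0.76 to 1.07.

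These calls stand against a broad response to time. For 6 h against 1 h, 50.5% of all genes were called in WT and 53.0% in CD47- cells, for 3 h against 1 h 34.3% and 38.0%, and for 6 h against 3 h 39.5% and 39.0%. The time course differed between the lines for 4.28% of genes at 3 h and 16.6% at 6 h. A call with time was therefore common among all genes.

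**Figure D3:**
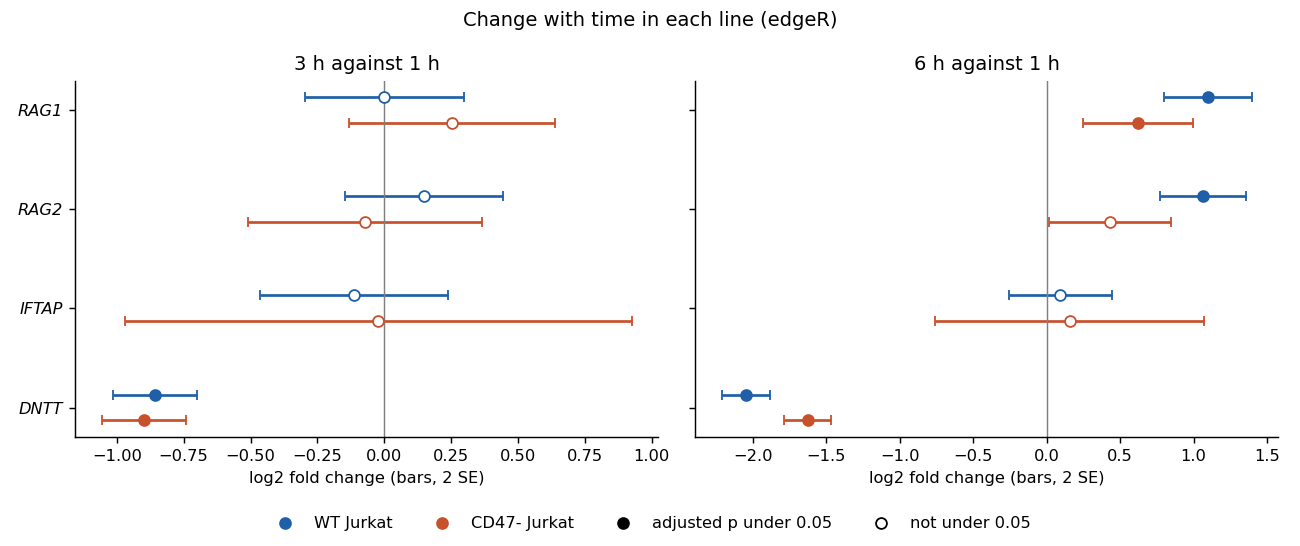
Log2 fold change of each gene at 3 h and 6 h against 1 h in WT (blue) and CD47- (orange) cells, with bars of 2 SE from edgeR. Filled points have an adjusted p under 0.05. DNTT falls at both times in both lines, RAG1 rises at 6 h in both lines, RAG2 rises at 6 h in WT cells (0.43, adjusted p = 0.097, in CD47- cells), and IFTAP is not called at either time.

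The third question is what CD3+CD28 engagement and TSP1 did. The treatment contrasts average over time, with CD3+CD28+TSP1 set against TSP1 alone (3 libraries against 3). In WT cells RAG1 differed by -0.62 (SE 0.15, adjusted p = 0.308) and RAG2 by -0.45 (SE 0.15, adjusted p = 0.673), neither called by edgeR. Of all genes 0.0919% were called, all 15 of them higher. RAG1 was called with DESeq2 (adjusted p = 0.0121), RAG1 and RAG2 were called by edgeR with no filter on low counts (adjusted p = 1.81e-09 and 0.00335), and RAG1 was called without the TSP1 library at 6 h (-0.86, adjusted p = 0.00861). Without the WT TSP1 library at 3 h RAG1 was at -0.41 and RAG2 at -0.22 (adjusted p = 1 for both). In CD47- cells the values were -0.12 (SE 0.19) for RAG1 and -0.16 (SE 0.22) for RAG2, and 0% of genes were called (0 also with DESeq2 and limma voom, and 2636 at an unadjusted p under 0.05 by edgeR). The lines differed in this contrast by 0.50 for RAG1 (SE 0.24, adjusted p = 0.705).

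DNTT was not called on activation, at -0.0068 in WT (interval -0.17 to 0.15) and -0.11 in CD47- cells (interval -0.27 to 0.042). In the model by time given below, DNTT in CD47- cells was at -0.25 at 3 h (interval -0.49 to -0.012), against 1 unactivated library. It was at 0.065 at 1 h and 0.052 at 6 h there. TSP1 added to CD3+CD28 moved RAG1 by -0.039 (interval -0.33 to 0.26), RAG2 by -0.081 (-0.38 to 0.21) and DNTT by -0.042 (-0.20 to 0.12) in WT cells. In CD47- cells the values were 0.11 (-0.27 to 0.49), -0.24 (-0.67 to 0.19) and -0.11 (-0.27 to 0.049). None was called, nor was any gene by edgeR in either line (0%, with 366 and 1771 genes at an unadjusted p under 0.05 in WT and CD47- cells, 1 and 0 by DESeq2, 0 and 0 by limma voom). Set against the 1 untreated library per line, neither CD3+CD28 nor TSP1 gave a call for the 4 genes, with RAG1 at -0.61 (SE 0.22, adjusted p = 0.565) for CD3+CD28 in WT cells. With no filter on low counts this RAG1 difference was called (-0.59, adjusted p = 0.00246). No gene was called by edgeR there (1359 and 657 at an unadjusted p under 0.05 for CD3+CD28 in WT and CD47- cells, 1165 and 1406 for TSP1), and DESeq2 called 7, 2, 1 and 2 genes in the same order. These comparisons share the CD3+CD28+TSP1 and untreated libraries.

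The values by library showed that the treatments parted RAG1 at 1 h and 3 h and not at 6 h, so a further model was fitted after the values were seen, with activated (CD3+CD28 with or without TSP1) against unactivated libraries (untreated or TSP1) at each time. Its p-values are thus not independent of the pattern. In WT cells RAG1 was 208 and 227 CPM activated against 346 and 354 CPM unactivated at 1 h, 187 and 218 against 400 CPM at 3 h, and 499.96 and 565 against 557 CPM at 6 h. The states separated at 1 h and 3 h and overlapped at 6 h. The differences were -0.69 at 1 h (SE 0.11, adjusted p = 0.056), -0.98 at 3 h (SE 0.14, adjusted p = 0.00517) and -0.063 at 6 h (SE 0.14) by edgeR. The 1 h value was called in 5 of 7 alternatives and in 3 of 20 fits without 1 library (adjusted p up to 0.442). RAG2 was at -0.28 at 1 h (SE 0.14, adjusted p = 0.799 by edgeR), called in no alternative, and at -0.085 at 6 h (SE 0.17). For RAG2 the 3 h value was -0.84 (SE 0.17, adjusted p = 0.0555), called in 7 of 7 alternatives and in 2 of 19 fits without 1 library (adjusted p up to 0.443). The test of the 6 h effect against that at 1 h and 3 h gave 0.77 for RAG1 (SE 0.17, adjusted p = 0.762) and 0.48 for RAG2 (SE 0.21, adjusted p = 1), neither called, so a change of the effect with time was not shown. Of all genes 0.0429% were called at 1 h, 0.416% at 3 h and 0% in the test of the 6 h effect. In that test 477 genes had an unadjusted p under 0.05 by edgeR. The 3 h value rests on 1 unactivated library, and its adjusted p was 0.0876 without the CD3+CD28 library at 3 h.

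Averaged over 1 h and 3 h, RAG1 fell by 0.83 on activation of WT cells (SE 0.089, adjusted p = 0.000437) and RAG2 fell by 0.56 (SE 0.11, adjusted p = 0.0326) by edgeR. These times were picked, and 6 h left out, after the RAG1 values were seen. The p-values and the rank of RAG1 in this contrast follow in part from that choice and are a description. CD3+CD28+TSP1 against TSP1 over all times gave an adjusted p of 0.308 for RAG1 by edgeR. In this contrast 119 genes (0.729%) were called, 20 of them lower, and RAG1 had the third lowest value of these after HEPACAM and AC005332.2. Without the WT TSP1 library at 3 h, the only unactivated WT library at that time, this contrast could not be fitted. In the other 19 fits without 1 library RAG1 stayed called (adjusted p at most 0.00431), while RAG2 was not called in 12 of them. IFTAP (-0.36, adjusted p = 0.738) and DNTT (0.039, adjusted p = 0.985) were not called. In CD47- cells RAG1 was at -0.18 (SE 0.11, adjusted p = 0.892) and RAG2 at -0.14 (SE 0.15, adjusted p = 0.892), with no gene called there by edgeR, DESeq2 or limma voom and 480 genes at an unadjusted p under 0.05 by edgeR. The difference between the lines was 0.65 for RAG1 (SE 0.14, interval 0.37 to 0.94, adjusted p = 0.197) and 0.42 for RAG2 (SE 0.19, adjusted p = 0.783), among 0.0796% of genes called. It was called for RAG1 with DESeq2 (adjusted p = 0.0138), with no filter on low counts (adjusted p = 0.00453) and without the CD47- CD3+CD28 library at 3 h (adjusted p = 0.0236), with an adjusted p up to 0.579 in the other alternatives.

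**Figure D4:**
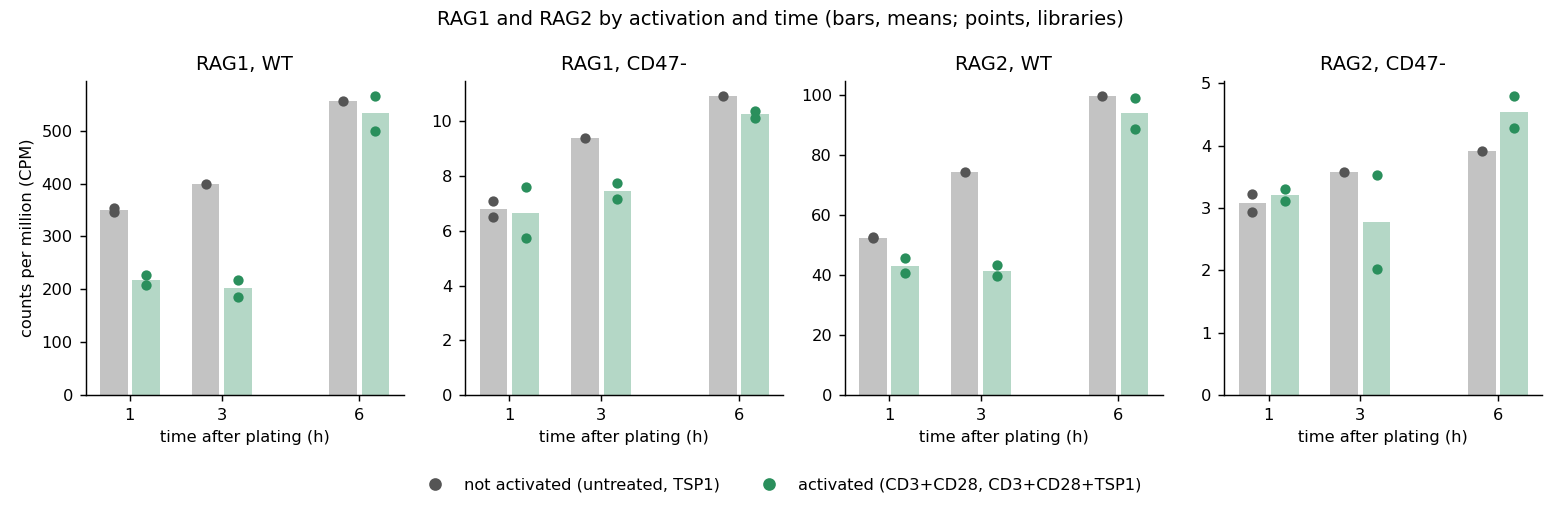
RAG1 and RAG2 in CPM by time after plating, in WT and CD47- cells. Bars are means of 1 or 2 libraries and points are libraries, grey for unactivated and green for activated cells. In WT cells the activated libraries lie below the unactivated ones at 1 h and 3 h and beside them at 6 h.

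The remaining genes of the pathway were read from fixed lists. Of 14 end joining genes, which seal the ends after the recombinase has cut, 7 were called for 6 h against 1 h in WT (3 higher, 4 lower) and 9 in CD47- cells (5 higher, 4 lower), against 50.5% and 53.0% of all genes, which is also the background of the lists below. The medians of the end joining genes were 0.15 and -0.00050, against -0.0031 and -0.0034 over all genes. LIG4, the ligase of the pathway, fell by 0.63 in WT (adjusted p = 1.5e-06) and 0.77 in CD47- cells (adjusted p = 2.1e-07), and the damage kinase ATM fell by 0.46 (adjusted p = 0.000129) and 0.72 (adjusted p = 1.82e-06) by edgeR. NHEJ1, the XLF scaffold, rose by 0.67 (adjusted p = 3.02e-05) and 0.73 (adjusted p = 1.2e-05). PAXX, a further scaffold, was at 0.39 in WT (adjusted p = 0.0548) and rose by 1.05 in CD47- cells (adjusted p = 7.29e-05). Between the lines 4 of the 14 were called, against 40.4% of all genes, 2 in each direction, and LIG4 differed by -0.026 (SE 0.18, adjusted p = 0.926).

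Of 9 genes whose products bind or regulate RAG1, RAG2 or TdT, 6 were called for 6 h against 1 h in WT (3 higher, 3 lower) and 5 in CD47- cells (1 higher, 4 lower). HMGB2, a DNA bending cofactor of the RAG complex, fell by 0.56 in WT (adjusted p = 0.00247) and by 1.23 in CD47- cells (adjusted p = 2.83e-06). CDK2, a cell cycle kinase that phosphorylates RAG2, fell by 1.03 (adjusted p = 2.69e-07) and 0.94 (adjusted p = 5.02e-07), and its partner CCNA2 by 0.47 (adjusted p = 0.000296) and 0.86 (adjusted p = 1.09e-06). DNTTIP1, a TdT binding protein, rose by 0.37 (adjusted p = 0.00391) and 0.23 (adjusted p = 0.0441). Between the lines 7 of the 9 were called, against 40.4% of all genes, 5 of them lower in CD47- cells (20.6% of all genes), all within a smaller range (-0.56 to 0.32) than RAG1 and RAG2.

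Of 22 transcription factors of lymphoid cells, 15 were called in WT (7 higher, 8 lower) and 14 in CD47- cells (3 higher, 11 lower). TCF3, which encodes the E proteins that bind E-boxes, rose by 1.04 in WT (adjusted p = 0.000141) and 1.13 in CD47- cells (adjusted p = 6.47e-05). Of its inhibitors, ID3 fell by 1.77 (adjusted p = 3.78e-07) and 1.34 (adjusted p = 4.91e-06), and ID2 fell by 1.15 (adjusted p = 2.22e-05) and 0.54 (adjusted p = 0.00483). A further E protein gene, TCF12, fell by 0.33 in WT (adjusted p = 0.000219) and by 1.04 in CD47- cells (adjusted p = 7.53e-09), and the lines differed in this (-0.72, adjusted p = 6.34e-05).

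Of 11 genes of immature thymocytes, 9 were called in WT (6 higher, 3 lower) and 10 in CD47- cells (6 higher, 4 lower). CD4, a T cell co-receptor, fell by 1.87 (adjusted p = 1.75e-08) and 1.61 (adjusted p = 3.27e-08) by edgeR. CD8A, a chain of the other co-receptor, rose by 1.12 (adjusted p = 0.0257) and 1.21 (adjusted p = 0.00728) by edgeR. Its level was low, with 143 counts over the WT and 339 over the CD47- libraries (mean 0.599 and 1.43 CPM). The lipid presenting molecules CD1A and CD1B rose by 1.21 (adjusted p = 3.35e-07) and 1.16 (adjusted p = 9.35e-07) in WT cells and by less in CD47- cells, 0.26 (adjusted p = 0.0338) and 0.59 (adjusted p = 0.000331), with a difference between the lines that was called for both (adjusted p = 0.000458 and 0.021). On activation over 1 h and 3 h in WT cells 2 of the 11 were called (0.729% of all genes), 1 in each direction, and CD1D fell by 0.43 (adjusted p = 0.0101).

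Of the 11 T cell markers, 8 were called for 6 h against 1 h in each line, 7 higher and 1 lower, where 25.7% of all genes were called higher in WT and 26.0% in CD47- cells. CD7 rose by 0.98 in WT (adjusted p = 0.0022) and 1.98 in CD47- cells (adjusted p = 4.43e-06) by edgeR. The 1 myeloid marker tested, CD14, was at -0.26 (adjusted p = 0.709) and 1.35 (adjusted p = 0.0877). The summed level of the 7 myeloid markers was 0.519 to 1.75 CPM in WT and 0.572 to 2.02 CPM in CD47- libraries.

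Beside RAG1 and RAG2, 3 genes of early B cells on the marker list were also lower in CD47- cells, CD79A, IGLL1 and EBF1. CD79A, a chain of the B cell receptor, was 33.9 to 54.0 CPM in WT and 4.15 to 9.97 CPM in CD47- libraries (-2.64, adjusted p = 1.17e-12), and IGLL1, a chain of the surrogate light chain, was 21.9 to 49.9 and 3.53 to 7.003 CPM (-2.82, adjusted p = 3.99e-13) by edgeR. EBF1, an early B cell transcription factor, differed by -2.22 (adjusted p = 1.8e-07 by edgeR). BLNK, on the same list, was higher from a low level (mean 0.244 CPM in WT and 0.708 CPM in CD47- libraries). CD79B was at 0.38 (adjusted p = 0.115 by edgeR). Over the whole B lineage list, 5 of 9 genes were tested and 4 called, 3 of them lower (40.4% and 20.6% of all genes). The summed level was 67.9 to 99.0 CPM in WT and 10.1 to 20.7 CPM in CD47- libraries. Most of the WT sum came from CD79A (mean 42.2 CPM) and IGLL1 (mean 36.1 CPM). The other lists were read against 40.4% of all genes called between the lines, 19.8% higher and 20.6% lower. Of the 11 immature thymocyte genes 6 were called, 4 lower and 2 higher, from -3.07 for PTCRA, the pre-T cell receptor chain (adjusted p = 3.68e-12), to 1.67 for CD1A (adjusted p = 1.08e-06). Of the 11 T cell markers 7 were called, 6 of them higher (19.8% of all genes), CD28 (2.35, adjusted p = 3.94e-10) and CD2 (1.43, adjusted p = 1.2e-10) the most. Of the 22 transcription factors 9 were called, 5 higher and 4 lower, close to the share of all genes. The defining B cell markers MS4A1 and PAX5 averaged at most 0.125 CPM in either line. The part of any of these genes in the RAG difference was not tested.

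**Figure D5:**
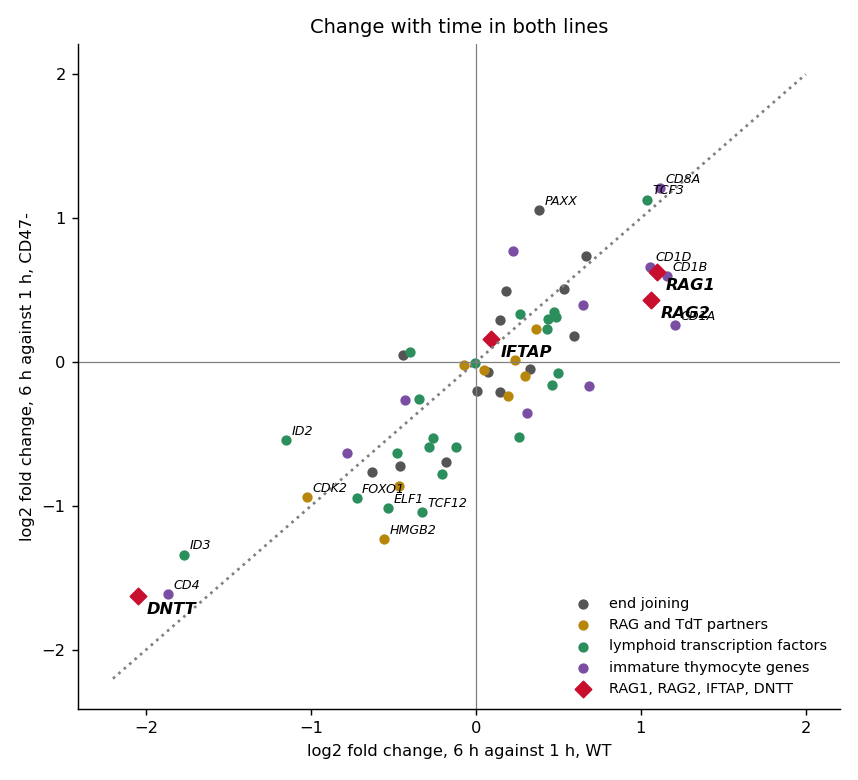
Log2 fold change for 6 h against 1 h in WT cells (horizontal) and CD47- cells (vertical) for the genes of 4 lists, with RAG1, RAG2, IFTAP and DNTT as red diamonds and the dotted line marking equal change. DNTT lies near CD4 and ID3 among the genes that fell most, and RAG1 and RAG2 lie right of the line with CD1A, CD1B and CD1D.

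The genes whose levels ran most alike with each of the 4 were found by Pearson correlation of log2(CPM + 0.5) over the 10 libraries of a line, among 13097 genes in WT and 13212 in CD47- cells. The libraries share their times, so many genes correlate, and the values are a description. In WT cells MIR29B2CHG (r = 0.98), RAG2 (0.96) and ZNF22-AS1 (0.96) were most like RAG1, GIMAP7 (0.98), ADAMTS1 (0.98) and DCLK3 (0.97) most like RAG2, and CCNG1 (0.998), ZDHHC20 (0.997) and GAB2 (0.997) most like DNTT. IFTAP had weaker matches in AL589182.3 (0.90), LINC01232 (0.88) and HYLS1 (0.86). RAG1 and DNTT ran against each other (-0.71 in WT and -0.85 in CD47- cells). In CD47- cells, where both had low counts, RAG1 and RAG2 had r = 0.70. By Spearman rank correlation they were at 0.87 there and 0.98 in WT cells. In CD47- cells B4GALT5, SUPT5H and SHLD1 led for RAG1, AFG3L2, UBE2L3 and NDUFA7 for RAG2, and ARHGAP19, KLHL24 and PJA2 for DNTT.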

How the data were processed

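RNA of WT and CD47- Jurkat cells was sequenced in 20 libraries, 1 for each line, treatment and time. The submitters' processing notes name cutadapt 1.18, STAR 2.4.2a, RSEM 1.3.3, limma and the builds hg38 and GRCh38. The deposited values are expected counts that the authors estimated with RSEM for genes and isoforms, not normalised. The study reports a batch correction by ComBat in its own analysis, and the sources used here do not name the batches. The deposited values were treated as uncorrected. They were rounded to whole numbers before testing. Each table holds 2 columns of no sample given here, which were not used. Columns were matched to samples by name.

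Genes were kept by edgeR's filterByExpr (minimum count 10, minimum total 15) and scaled by TMM. Quasi-likelihood tests (edgeR 4.0.16, R 4.3.3) used all 20 libraries. The difference between the lines was fitted with line as the only term, 10 libraries against 10, so its SE includes the spread over treatments and times. Time and treatment were fitted with 12 coefficients, a mean for each line and treatment and a 3 h and 6 h term for each line, with 8 residual degrees of freedom. P-values were adjusted by Benjamini-Hochberg over all genes or isoforms at 0.05. Intervals are 2 SE to each side. The floor of 3 counts covers counting error only. The tests were also run on simulated data, and no outcome of that check is reported here.

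The 4 genes and the gene lists were chosen with earlier results of these data known. Genes named are the 4, tested genes within 500 kb, the 3 genes most alike in each line (mean log2 CPM of at least 1), and up to 4 called genes with the largest change from 1 h to 6 h in each list. CD1D, HEPACAM, AC005332.2, CD79A, IGLL1, EBF1, PTCRA, CD2 and CD28 were named after their values were seen. CD47, the untested AC104042.1 and PRR5L, and further members of the T cell, B lineage and myeloid marker lists are also named, called or not. Alternatives were DESeq2 1.42.0, limma 3.58.1 (voom), other filters and scalings, a shared time effect and leaving out each library. A marker gene and an upstream sequence are among the items not reported here.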

Additional observations from a re-analysis of the deposited data

Results flagged for a closer look

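One result was marked for a second reading. DNTT fell from 1 h to 6 h in both lines, by 2.05 in WT and by 1.63 in CD47- cells on the log2 scale, and the test of the difference between the lines passed, at 0.42 (SE 0.11, edgeR adjusted p = 0.0211). This call was lost in 4 of 20 fits that left out 1 library (edgeR adjusted p up to 0.0712). A difference of this kind was called for 16.6% of all genes tested. DNTT was higher in CD47- cells at both times. At 1 h it was 186 ± 7.61 CPM (n = 4) against 134 ± 8.04 CPM (n = 4) in WT cells. At 6 h it was 61.1 ± 1.57 CPM (n = 3) against 33.0 ± 0.534 CPM (n = 3). The mean difference in matched pairs was 0.47 at 1 h and 0.88 at 6 h, on the log2 scale of CPM. In 16 groups, the 4 libraries at 1 h and the 10 libraries of each line for each of the 4 genes, no library stood apart from the others by Dixon's criterion. Groups of 3 libraries, at 3 h and 6 h, were not tested. The groups of 10 pool all times and treatments, and with that spread the criterion could hardly mark a single library.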

How the results depend on the processing

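RAG1, RAG2 and DNTT kept their direction and their call for 6 h against 1 h in WT cells in all 8 alternatives and in the 20 fits that each left out 1 library, with RAG1 between 0.89 and 1.34, RAG2 between 0.82 and 1.21 and DNTT between -2.11 and -1.83. No called value changed sign. In CD47- cells the rise of RAG1 lost its call with limma voom (0.54, adjusted p = 0.181), and ran from 0.54 to 0.75 without single libraries. RAG2 there was called with no filter on low counts (0.42, adjusted p = 0.0206) and with 1 time effect shared by both lines (0.82, adjusted p = 0.000156), a value that the WT libraries enter by construction. Without single libraries it ran from 0.31 to 0.57 and was called once, without the WT TSP1 library at 3 h (adjusted p = 0.0422). The smaller fall of DNTT in CD47- cells ran from 0.33 to 0.51 without single libraries, and the number of genes called in that comparison from 1459 to 4273, against 2714 with all of them. RAG1 in WT cells for CD3+CD28+TSP1 against TSP1 ran from -0.86 to -0.41 without single libraries. The causes of these changes were not tested. Scaling by library totals alone moved the median of all genes by -0.12 for activation over 1 h and 3 h in WT cells and by 0.11 between the lines, and no call of the 4 genes was lost with it. With a block for each matched pair of libraries the line difference was -5.35 for RAG1, -4.14 for RAG2, -5.39 for IFTAP and 0.58 for DNTT. The pairs share treatment and time and no culture, and no other paired fit was made. IFTAP could not be tested under a filter of 1 CPM in every library. Its 2 to 12 counts a library in CD47- cells limit what can be said of it there.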
